A study of Mus musculus with 6 samples.

Results

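In all, 10 genes of dopamine, adenosine, acetylcholine and cyclic AMP signalling were followed: Drd1, Drd2, Drd3, Adora2a, Chrm4, Gnal, Adcy5, Ppp1r1b, Pde10a and Pde1b. They were chosen by name as receptors and cyclic AMP effectors of striatal neurons, and all 10 were found among the 29659 genes of the deposited table. RNA was sequenced from the lateral ganglionic eminence (LGE), the embryonic ventral forebrain region that gives rise to the striatum, at embryonic day 16.5 in mice labelled C57BL/6. The 3 control libraries carried the Dlx5/6-Cre transgene alone, with no floxed allele named in the labels. The 3 Zfhx3-CKO libraries carried the same transgene with floxed Zfhx3 (Zfhx3F/F), the gene of a very large transcription factor with zinc fingers and homeodomains. All 6 libraries thus share Cre. Cre from Dlx5/6 sequences acts in the inhibitory neuron lineage of the ganglionic eminences, so other cells in the dissected piece keep Zfhx3. The comparison asks how loss of Zfhx3 changes the LGE, with D1-type striatal projection neurons named in the series title.

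Striatal projection neurons fall into D1-type cells, which carry the dopamine receptor Drd1 and the muscarinic receptor Chrm4, and D2-type cells, which carry the dopamine receptor Drd2 and the adenosine receptor Adora2a. Drd1 and Adora2a raise cyclic AMP through Gnal, the olfactory-type stimulatory G protein alpha subunit, and the adenylyl cyclase Adcy5, while Drd2 and Chrm4 act through inhibitory G proteins and lower it. Cyclic AMP activates protein kinase A, which phosphorylates DARPP-32, the product of Ppp1r1b, and turns it into an inhibitor of protein phosphatase 1. Pde10a and Pde1b break cyclic nucleotides down.

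Below, CKO stands for Zfhx3-CKO and log2FC for the log2 fold change of Zfhx3-CKO over control. Library totals ran from 15938590 to 16753355 counts in the control group and from 18960574 to 20311799 in the CKO group. Whether replicates are separate animals is not said in the labels, so p-values reflect only how these libraries varied, possibly for technical reasons. Xist gave 5 to 9 counts in control and 55947 to 59631 in CKO libraries, and 4 Y-linked genes together gave 4939 to 5451 and 5 to 8. Sex and genotype cannot be told apart here. Zfhx3 itself was measured at 134, 135 and 101 CPM (counts scaled to a common library total) in the control libraries and at 98.7, 87.3 and 99.3 CPM in the CKO libraries (log2FC -0.37, edgeR adjusted p 0.091). The groups did not overlap, yet the adjusted p missed 0.05, the threshold used throughout. Zfhx3 passed without control library 3 (log2FC -0.50, edgeR adjusted p 0.0259) and with no low-count filter (edgeR adjusted p 0.0308). Which exons were deleted is not in the labels, so the count over the whole gene is a weak check of them. Striatal lineage markers were present in every library: 12 genes such as Foxp1 and Gad1 summed to 4699 to 5106 CPM in the control group and to 4045 to 4228 CPM in the CKO group.

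The CKO libraries differed among themselves in markers of cells other than striatal projection neurons. The 11 markers of cortical excitatory neurons summed to 134 to 161 CPM in the control libraries and to 293, 145 and 401 CPM in CKO libraries 1, 2 and 3. Of these sums, Tle4 alone (log2FC 0.21) gave 88.5 to 110 CPM in the control libraries and 117, 99.5 and 131 CPM in the CKO libraries. The 5 markers of cholinergic neurons summed to 16.9 to 22 CPM and to 43.6, 29.9 and 67.4 CPM. Library 2 was thus within the control range on the cortical sum and closest to it on the cholinergic sum, and libraries 1 and 3 were further above. Lhx8 made up most of the cholinergic sum, at 26.5 CPM in library 2 against 12.2 to 16.1 CPM in the control libraries. In library 2, Chat and Gbx2 were within the control range and Slc5a7 and Slc18a3 were below it. Values without single CKO libraries stand beside the results they change. Fewer cells of a type and less RNA per cell cannot be told apart in such bulk tissue.

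**Figure D1:**
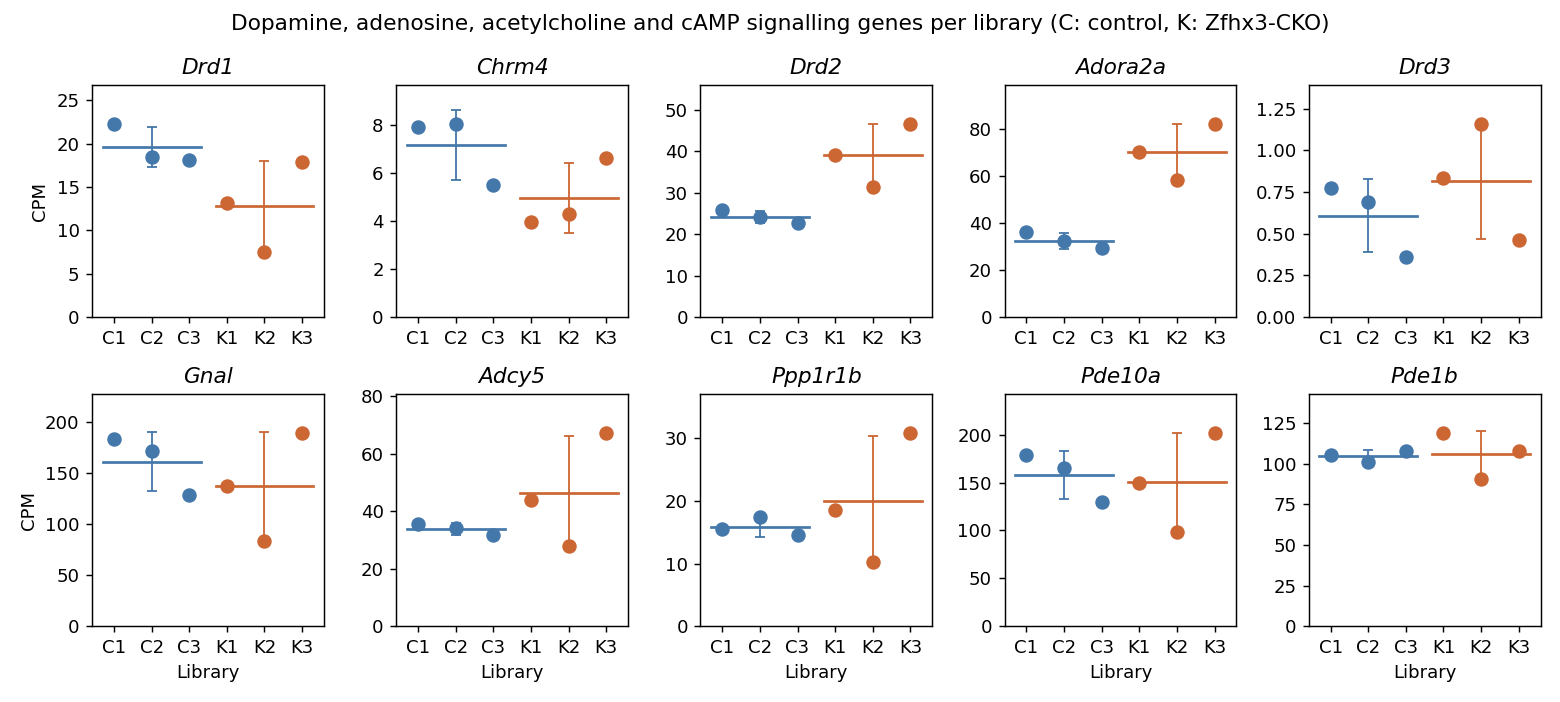
CPM (linear axis from 0) of each gene in the 3 control (C1 to C3, blue) and 3 CKO (K1 to K3, orange) libraries; points are libraries, horizontal lines group means and vertical bars SD. Adora2a and Drd2 are higher in all 3 CKO libraries than in any control library, Drd1 is lower in all 3, and in most of the other panels K2 is low and K3 is high.

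Across the 10 genes, 2 rose in the CKO LGE, Adora2a and Drd2, and none fell. In edgeR's quasi-likelihood test of 16551 genes, 3.87% of all genes were called higher and 3.49% lower, 7.36% in either direction. All 10 genes entered the test. DESeq2 also called 2 higher and 0 lower (5.75% and 4.3% of all genes it tested), as did limma on FPKM (3.33% and 3.4%). With scaling by RLE factors or by totals alone, and with no filter on low counts or a strict one, 2 were higher as well (3.93%, 3.75%, 3.62% and 4.77% of all tested genes). The median log2FC of the 10 genes was 0.17, beside 0.00 over all genes tested. Groups did not overlap for 3 of the 10 (Drd1, Drd2 and Adora2a), where 31.4% of all tested genes had groups that did not overlap, 15.5% with CKO higher and 15.9% with it lower.

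The count of calls depended on single libraries. Without control library 1, 2 or 3 or CKO library 1, Adora2a alone was higher (0.927%, 0.913%, 2.43% and 1.32% of all tested genes). Without CKO library 2, Adcy5 joined Adora2a and Drd2 (5.11%). Without library 3, Drd1 and Chrm4 were lower beside the same 2 higher genes (6.06% lower and 6.47% higher). With library 2 as the only CKO library, whose spread is then taken to be that of the controls, Adora2a was higher and Drd1, Gnal and Pde10a were lower (4.97% and 4.93%). A block on replicate numbers left 1 gene higher (1.06%).

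The dopamine receptors Drd1 and Drd2 stand on opposite sides of the pathway. The bases before their RefSeq start sites (GRCm38.p6) are shown because their log2FC have opposite signs, although that of Drd1 did not pass (edgeR adjusted p 0.196). Whether these sequences bear on the changes was not tested. Each line holds 250 bases, 5′ to 3′ on the gene's strand, and capitals mark GGGCGG, the GC box, on either strand.

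Drd2 (chr9:49340153-49340402, plus strand): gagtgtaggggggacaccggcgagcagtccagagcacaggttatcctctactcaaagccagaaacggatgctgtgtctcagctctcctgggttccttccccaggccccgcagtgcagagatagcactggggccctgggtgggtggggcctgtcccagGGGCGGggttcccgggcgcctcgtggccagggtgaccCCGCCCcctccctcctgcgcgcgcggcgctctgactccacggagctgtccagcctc
Drd1 (chr13:54055659-54055908, minus strand): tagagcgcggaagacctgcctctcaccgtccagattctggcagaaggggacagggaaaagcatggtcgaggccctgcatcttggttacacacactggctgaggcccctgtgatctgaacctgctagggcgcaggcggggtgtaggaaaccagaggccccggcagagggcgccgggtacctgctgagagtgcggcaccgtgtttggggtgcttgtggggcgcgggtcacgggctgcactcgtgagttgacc

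The Drd2 window holds GC boxes that begin 93 and 56 bases before the start site, and the Drd1 window shown holds none, while the window before a second, downstream RefSeq start site of Drd1 (54054780) holds one that begins at -133; 32.7% of 32817 windows of the same length hold one. The deposited Drd2 gene begins 224 bases after the RefSeq start. The deposited Drd1 gene begins at -47 relative to the start site of the window shown, so the end of that window lies within the deposited gene. Both windows are rich in G and C (68.8% and 64%). Searched on both strands, the cyclic AMP response element TGACGTCA, its shorter form TGACG and the homeodomain core TAATTA had no match in these windows, where 1.55%, 17.7% and 4.85% of all windows hold them. TGACG lies within TGACGTCA, so every match of the longer form is also one of the shorter. Of the 10 genes, 7 have an entry in that table.

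Drd1, the receptor of D1-type neurons (ENSMUSG00000021478, chromosome 13, 54051183 to 54055705, minus strand, GRCm38), was measured at 22.3, 18.5 and 18.1 CPM in the control libraries and at 13.1, 7.51 and 17.9 CPM in the CKO libraries. Every CKO value lay below every control value, but library 3 did so by only a small margin. The means were 19.6 ± 2.3 and 12.8 ± 5.18 CPM (SD, n = 3 each). The log2FC of -0.61 (SE 0.27) did not pass (edgeR adjusted p 0.196), and an exact permutation test (two-sided) returned 0.1, which 3 against 3 libraries cannot go below. Without CKO library 3 the change was -0.92 (adjusted p 0.0296). With library 2 as the lone CKO library it was -1.38, and without library 2 it was -0.34 (edgeR adjusted p 0.239).

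Chrm4, the inhibitory muscarinic receptor of D1-type neurons (ENSMUSG00000040495, chromosome 2, 91927249 to 91928688), was measured at 7.94, 8.06 and 5.5 CPM in the control libraries. The CKO libraries gave 3.96, 4.28 and 6.65 CPM. The groups overlapped, since CKO library 3 lay above control library 3. The log2FC was -0.53 (SE 0.25, adjusted p 0.22), close in size to that of Drd1, and it passed without CKO library 3 (-0.79, adjusted p 0.0462) but not without library 2 (-0.43, adjusted p 0.34). These values rest on 81 to 133 counts per library, and the deposited gene span of 1440 bases equals the exonic length of its single annotated transcript in GENCODE vM21.

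Drd2, the inhibitory dopamine receptor of D2-type neurons (ENSMUSG00000032259, chromosome 9, 49340627 to 49408177, plus strand), was measured at 25.8, 24.1 and 22.8 CPM in the control libraries. It was measured at 39.1, 31.4 and 46.7 CPM in the CKO libraries, all above the highest control value. Drd2 rose 1.61-fold. The means were 24.2 ± 1.5 and 39.1 ± 7.69 CPM (SD, n = 3 each), with a log2FC of 0.69 (SE 0.14, edgeR adjusted p 0.0274, exact permutation p = 0.1). The call was lost without control library 1, 2 or 3 or CKO library 1 (adjusted p 0.102, 0.119, 0.0913 and 0.0902). With CKO library 2 alone against the controls the change was 0.37, and the part of other cell types in this was not tested. The authors' deposited table gives Drd2 a log2FC of 0.62 and an adjusted p of 0.000391 and does not mark it as significant.

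Adora2a, the stimulatory adenosine receptor of D2-type neurons (ENSMUSG00000020178, chromosome 10, 75316877 to 75334784, plus strand), had the largest change of the 10 genes. It was measured at 36.1, 32.3 and 29.4 CPM in the control libraries and at 70.4, 58.6 and 82.4 CPM in the CKO libraries. The lowest CKO value stood well above the highest control value. Adora2a rose 2.16-fold, a log2FC of 1.11 (SE 0.13, edgeR adjusted p 0.00326, exact permutation p = 0.1). It passed in all 14 alternative fits, with log2FC of 0.85 to 1.23 and adjusted p of at most 0.0292. The value of 0.85 came from CKO library 2 alone against the controls. Adora2a is the 1 member that the authors' deposited table marks as significant (log2FC 1.01, adjusted p 4.25e-12).

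Drd3, a dopamine receptor of the same subfamily as Drd2 and best known from the ventral striatum (ENSMUSG00000022705, chromosome 16), was close to the limit of detection. Its counts were 13, 11 and 6 in the control libraries and 17, 22 and 9 in the CKO libraries. The groups overlapped, and the log2FC of 0.42 (SE 0.45, adjusted p 0.6) was smaller than its error. Whether a difference of this size could be detected at these counts was not tested. Drd3 differed from the other members in its spread, since within the CKO group library 2 was its highest and library 3 its lowest.

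The receptors were also set against each other within each library as ratios of FPKM (fragments scaled by gene length and library total), a level per length that the choice of scaling between libraries does not touch. The Drd1 to Drd2 ratio was 0.606, 0.537 and 0.558 in the control libraries and 0.235, 0.168 and 0.268 in the CKO libraries. The lowest control ratio was above the highest CKO ratio. This separation follows from the single genes and adds nothing to them. Every CKO value was below the controls for Drd1 and above them for Drd2. Adora2a was also above in every CKO library, so Drd1 to Adora2a had to separate too. In CKO library 3 the Drd1 level was nearly that of the controls. The Drd1 to Adora2a ratio stood at 0.508 ± 0.0223 and 0.15 ± 0.0381 (SD, n = 3 each), and the Chrm4 to Adora2a ratio at 0.465 ± 0.0661 and 0.149 ± 0.0266. Within the D2-type pair, Drd2 to Adora2a stood at 0.858 to 0.933 in the control libraries and at 0.643 to 0.682 in the CKO libraries. Within the D1-type pair, Drd1 to Chrm4 stood at 0.909 to 1.31 and at 0.696 to 1.31, and the groups overlapped. In all, 8 ratios were computed, 5 of them without overlap, as a description with no test. Several of them share a gene, so they are not separate results. No share of ratios without overlap over other gene pairs stands beside this count. Of single tested genes, 31.4% had groups that did not overlap.

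**Figure D2:**
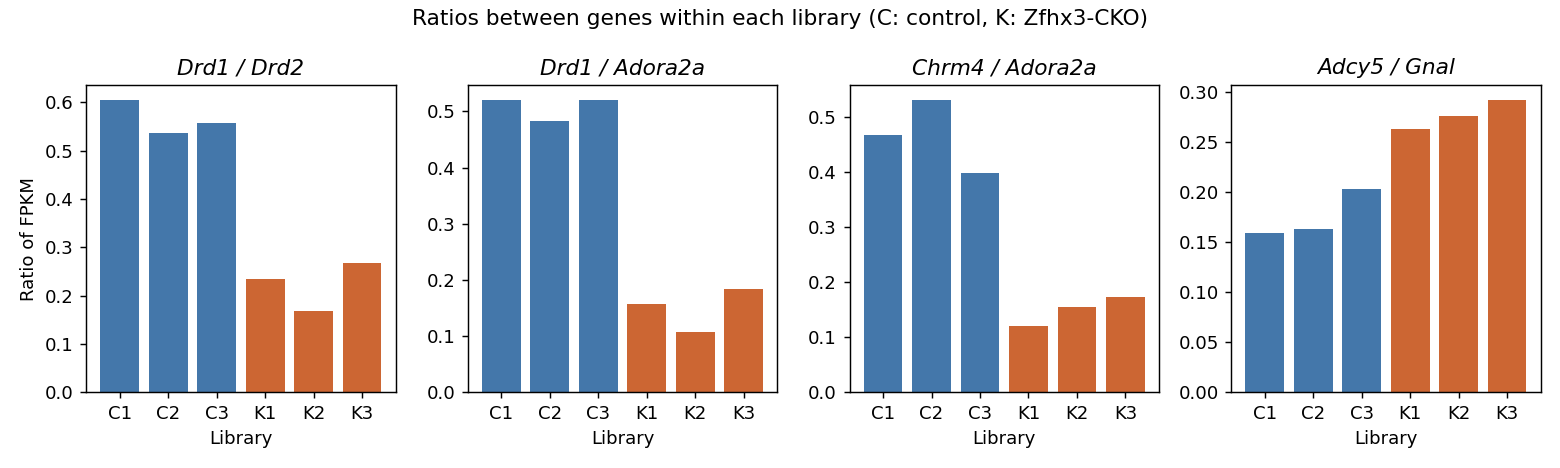
Ratio of FPKM between 2 genes (linear axis from 0) in each control (C1 to C3, blue) and CKO (K1 to K3, orange) library; each bar is 1 library. Drd1 relative to Drd2 stands at 0.537 to 0.606 in the controls and at 0.168 to 0.268 in the CKO libraries, and Adcy5 relative to Gnal at 0.159 to 0.203 and 0.263 to 0.292.

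The genes downstream of the receptors did not pass the test, and the CKO libraries spread widely for all of these genes but Pde1b. Gnal (ENSMUSG00000024524, chromosome 18, 67088336 to 67226792) was measured at 184, 172 and 129 CPM in the control libraries and at 138, 83.7 and 190 CPM in the CKO libraries. The groups overlapped, with the lowest and the highest value of all 6 libraries both in the CKO group. The log2FC was -0.24 (SE 0.26, adjusted p 0.612). In GENCODE vM21, 7.63% of its exonic bases overlap exons of Mppe1 on the other strand, and the kit, a TruSeq RNA kit, does not mark strand.

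Adcy5, the main adenylyl cyclase of striatal neurons (ENSMUSG00000022840, chromosome 16), was measured at 35.6, 34.2 and 31.7 CPM in the control libraries, a narrow range. The CKO libraries gave 43.9, 28.1 and 67.4 CPM, with libraries 1 and 3 above and library 2 below every control library. The log2FC was 0.46 (SE 0.26, adjusted p 0.308). Without CKO library 2 it passed as higher (0.72, edgeR adjusted p 0.0281). With library 2 alone the log2FC was -0.27, so that the direction depended on which libraries entered. Adcy5 relative to Gnal, which acts directly upstream of it, stood at 0.159, 0.163 and 0.203 in the control libraries and at 0.263, 0.276 and 0.292 in the CKO libraries, with no overlap.

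Ppp1r1b, the DARPP-32 gene (ENSMUSG00000061718, chromosome 11, 98348404 to 98357796), was measured at 15.5, 17.5 and 14.5 CPM in the control libraries and at 18.6, 10.3 and 30.9 CPM in the CKO libraries. Library 3 was 3-fold above library 2 within the CKO group, the widest spread of the 10 genes. The control libraries differed by 1.21-fold. The log2FC was 0.34 (SE 0.33, edgeR adjusted p 0.568) and -0.62 with library 2 alone, against 0.65 without library 2 (adjusted p 0.083). Exons of 1700003D09Rik on the other strand overlap 15.7% of its exonic bases.

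Both phosphodiesterases had overlapping groups. Pde10a, which degrades both cyclic AMP and cyclic GMP (ENSMUSG00000023868, chromosome 17), was measured at 179, 165 and 130 CPM in the control libraries and at 150, 98.6 and 202 CPM in the CKO libraries (log2FC -0.08, SE 0.23, adjusted p 0.87). Its CKO values thus enclosed the control values. With library 2 alone, the log2FC of Pde10a and Gnal were -0.68 and -0.95, and without library 2 they were 0.16 and 0.02 (edgeR adjusted p 0.567 and 0.957). Pde1b, the calcium- and calmodulin-dependent enzyme (ENSMUSG00000022489, chromosome 15), was measured at 105, 101 and 108 CPM and at 119, 90.3 and 108 CPM. It had the smallest change of the 10 genes (log2FC 0.01, SE 0.10, adjusted p 0.951), and its CKO libraries differed by 1.31-fold.

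**Figure D3:**
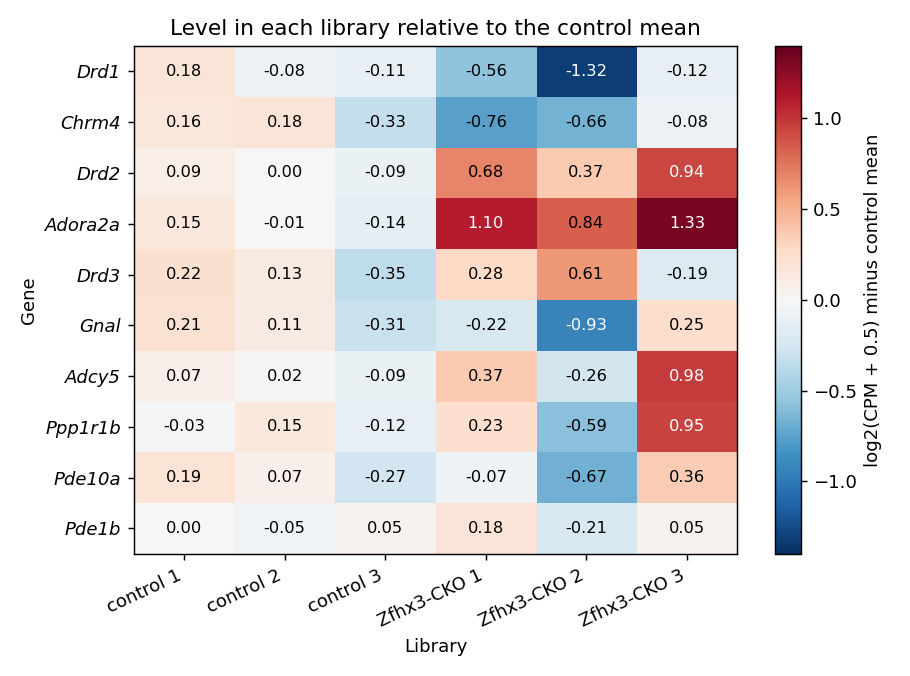
Each cell is log2(CPM + 0.5) in 1 library minus the mean of the 3 control libraries (colour scale from -1.4 to 1.4), with genes in rows and libraries in columns. The CKO library 2 column is the lowest of its group for 8 genes, while Drd2 and Adora2a stay above 0 in it (0.37 and 0.84) and Drd1 reaches -1.32.

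The spread within the CKO group was shared by most of the genes. CKO library 2 was the lowest of its group for 8 of the 10, against 35% of all tested genes. In 7 of the 10, Drd1, Drd2, Adora2a, Gnal, Adcy5, Ppp1r1b and Pde10a, library 2 was the lowest and library 3 the highest of the 3, an order that 24.5% of all tested genes had. In 6 of the 10 library 3 was at least 1.5 times library 2, against 13% of all tested genes. For 5 of the 10 (Gnal, Adcy5, Ppp1r1b, Pde10a and, by a small margin, Pde1b) library 2 lay below and library 3 above every control library, against 7.95% of all tested genes. The ratio of the largest to the smallest CPM was larger in the CKO group than in the control group for all 10 genes, and for 62% of all tested genes. Relative to the control mean the median of the 10 genes was 0.15, 0.04 and -0.13 (log2) in control libraries 1, 2 and 3, and 0.21, -0.42 and 0.31 in the CKO ones.

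Several marker lists moved with this spread. The cortical excitatory list median stood at 1.59, 0.01 and 1.83 in CKO libraries 1, 2 and 3. Of its 10 tested genes, 1 passed as higher, with 9 higher at an unadjusted edgeR p under 0.05. No share of all tested genes at that unadjusted threshold stands beside this count or the later ones of its kind. The cholinergic list stood at 0.78, -0.34 and 1.42, with 1 of 5 genes, Lhx8, higher. The defining cholinergic genes Chat and Slc18a3, which overlap in the genome, were at 0.688 and 0.582 CPM in library 2 and at 3.38 and 4.76 CPM in library 3. The control libraries gave 0.478 to 1.13 CPM for Chat and 1.43 to 1.83 CPM for Slc18a3. In no list was a marker at 0 in all 6 libraries. The part of these cells in the levels of Drd2, Adcy5 or the other genes was not tested. The median of 5 D2-type markers stood at 0.63, 0.65 and 0.74, with 4 of 5 higher, and that of 6 D1-type markers stood at -0.87, -0.95 and -0.58, with 3 of 6 lower. Ebf1, a transcription factor of D1-type neurons, was at 30.4, 26.4 and 39.7 CPM against 208 to 261 CPM in the controls, and the D1-type neuropeptide gene Tac1 at 35.8, 19.1 and 44.6 CPM against 27.7 to 36.6 CPM. Of these markers, 3 of the 5 D2-type and 4 of the 6 D1-type ones, Ebf1 and Tac1 among them, also had library 2 lowest and library 3 highest. The 12 striatal lineage markers, 6 of them lower, stood at -0.29, -0.23 and -0.31.

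**Figure D4:**
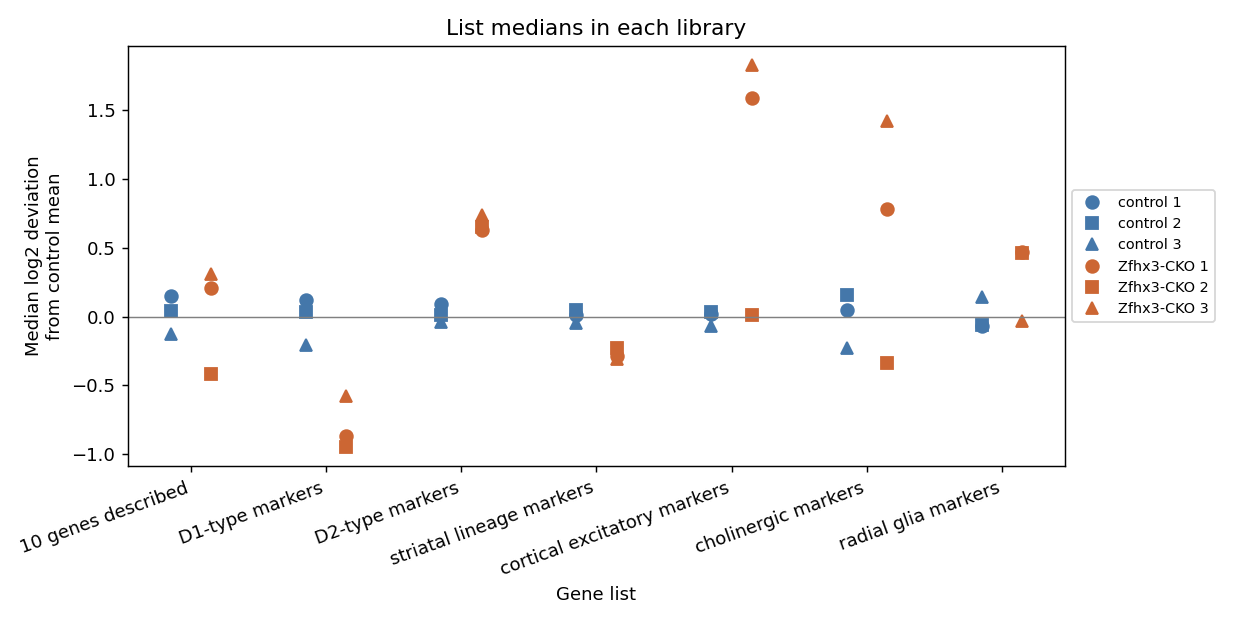
Median log2 deviation from the control mean for the 10 genes described and 6 marker lists, by library (blue: control, orange: CKO; circle, square and triangle: libraries 1, 2 and 3). The 10 genes, the cortical and the cholinergic lists have CKO library 2 below libraries 1 and 3, while the D2-type medians lie between 0.63 and 0.74.

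The remaining markers were compared in the same way. Radial glia markers summed to 993 to 1245 CPM in the controls and to 1320, 1298 and 949 CPM in CKO libraries 1, 2 and 3, with 1 of 6 genes higher. Of 4 oligodendrocyte precursor genes 1 was higher, of 5 microglia genes 1 was lower, and of 5 endothelial and 4 tested red blood cell genes none was called in edgeR's test (2 endothelial and 0 red blood cell genes at an unadjusted p under 0.05, 1 of each with DESeq2 and 0 with limma). All 5 sex-linked genes were called, 1 higher and 4 lower.

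Between genes, levels were compared as FPKM. In the control libraries Pde1b was the most abundant of the 10 (35.5 ± 1.4 FPKM), followed by Gnal (28.1 ± 4.97), Pde10a (12.6 ± 1.94), Adora2a (10.7 ± 1.07) and Drd2 (9.53 ± 0.559; SD, n = 3 each). Pde1b was at the 91.6th percentile of tested genes and Drd2 at the 63.8th. Drd1, Ppp1r1b, Chrm4 and Adcy5 lay together at 5.41, 5.41, 4.98 and 4.84 FPKM, and their order changed from 1 control library to another. Pde10a, Adora2a and Drd2 kept their order in all 3 control libraries, although the ranges of neighbours in that order overlapped. Drd3 was lowest, at 0.419 FPKM and the 8.68th percentile. In all 3 CKO libraries Adora2a and Drd2 stood above Pde10a, which had been above both in all 3 control libraries, and Drd1, level with Ppp1r1b in the control means, stood at rank 8 of 10 in the CKO means.

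Beside the 10 genes, 95 other genes of the pathway were listed, 94 were found and 89 were tested. Of these, 7 rose and 2 fell, and 80 did not pass, against 3.87% of all tested genes called higher and 3.49% lower. The share called was 9 of 89 genes, near the background of 7.36%. The calls were spread over 6 of the 8 lists.

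**Figure D5:**
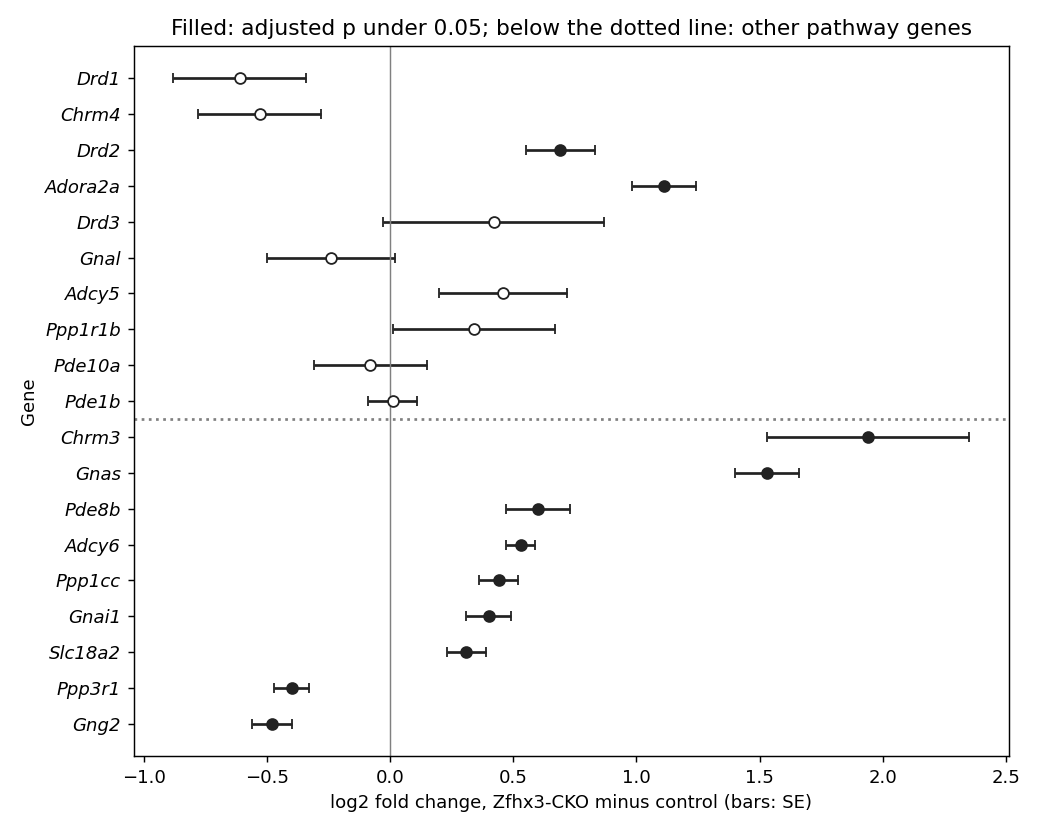
Log2FC of CKO minus control with its SE (horizontal bars) for the 10 genes and, below the dotted line, the 9 other pathway genes past the threshold; filled points have an adjusted p under 0.05. Adora2a and Drd2 are the filled points among the 10 (1.11 and 0.69), and Chrm3 and Gnas lie furthest to the right among the others (1.94 and 1.53).

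Of 9 tested receptors in the list of other dopamine, adenosine, acetylcholine and orphan striatal receptors, Chrm3, a muscarinic receptor that couples to phospholipase C, rose and 8 did not pass. Chrm3 was measured at 0.776, 0.504 and 0.837 CPM in the control libraries and at 1.86, 2.12 and 4.25 CPM in the CKO libraries (log2FC 1.94, SE 0.41, adjusted p 0.0271). The groups did not overlap, at low levels. The call was lost without control library 1, 2 or 3 (highest edgeR adjusted p 0.125), and with library 2 as the only CKO library the log2FC was 1.57. Gpr6, an orphan receptor of D2-type neurons, had a log2FC of -0.37 (adjusted p 0.329), and Drd4, a dopamine receptor of the Drd2 subfamily, of -0.49 (adjusted p 0.34). Gpr6, unlike Drd2 and Adora2a, had a value below 0 and no call. The list median was -0.37, and 6 of the 9 genes had the order of CKO libraries described above.

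Among 16 G protein subunits and chaperones 2 rose and 1 fell. The counts of Gnas, the gene of the widely expressed stimulatory alpha subunit and the close relative of Gnal, rose 2.9-fold. They went from 11.6, 12.5 and 13 CPM to 34.8, 31.2 and 41.5 CPM (log2FC 1.53, SE 0.13, edgeR adjusted p 0.000576). Gnas passed in all 14 alternative fits. Its level was low, at mean FPKM of 1.11 in the control and 3.2 in the CKO libraries, against 28.1 for Gnal in the control libraries. GENCODE vM21 annotates 24 transcripts for Gnas, and which of them rose was not tested. Exons of Nespas and Gm20721 on the other strand overlap 22% of the exonic bases annotated for Gnas. Its counts are thus uncertain as a measure of the alpha subunit. Gnai1, an inhibitory alpha subunit through which Drd2 and Chrm4 can act, rose from 56.9, 50.6 and 53.2 CPM to 74.5, 64 and 73.9 CPM (log2FC 0.40, adjusted p 0.0291). Gng2, a gamma subunit, fell from 747, 717 and 692 CPM to 491, 487 and 571 CPM (log2FC -0.48, adjusted p 0.0112), and exons of Gm48283 on the other strand overlap 20.4% of its exonic bases. None of the 3 had overlapping groups. The call of Gnai1 was lost without control library 1, 2 or 3 or CKO library 1 (up to 0.132 for the adjusted p). Gng2 lost its call without control library 1 or 2 or CKO library 1 (highest 0.0807). Gng7, the gamma subunit that pairs with the Gnal product in striatum, had a log2FC of -0.06 (adjusted p 0.852).

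Of 9 other adenylyl cyclases, Adcy6, the closest relative of Adcy5, rose and 8 did not pass. Adcy6 was at 88.6, 89.4 and 88.3 CPM in the control libraries and at 123, 128 and 133 CPM in the CKO libraries. Both groups were tight, with none of the spread of Adcy5 between CKO libraries 2 and 3. The log2FC was 0.53 (SE 0.06, adjusted p 0.00296), and Adcy6 passed in all 14 alternative fits with values of 0.50 to 0.56. Exons of Gm29331 on the other strand overlap 8.92% of the exonic bases of Adcy6. Adcy8 and Adcy2 came next (log2FC 1.17 and 0.59, edgeR adjusted p 0.0753 and 0.0975) and passed without CKO library 2 (adjusted p 0.045 and 0.0361). Adcy8 also passed with no low-count filter (edgeR adjusted p 0.0449). The list median was 0.35.

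Of 12 other phosphodiesterases tested, Pde8b, an enzyme specific for cyclic AMP, rose from 9.13, 7.68 and 8.49 CPM to 12.2, 13.3 and 12.7 CPM (log2FC 0.60, adjusted p 0.0293), and 11 did not pass. Its groups did not overlap, but the call was lost without control library 1, 2 or 3 or CKO library 1 (highest edgeR adjusted p 0.131). Exons of Gm48420 on the other strand overlap 7.6% of the exonic bases of Pde8b. Pde1a, a relative of Pde1b, had a log2FC of 1.30 (edgeR adjusted p 0.0532), and Pde1c one of 0.29 (adjusted p 0.215). Pde1a passed without CKO library 2 (edgeR adjusted p 0.0185), with no low-count filter (edgeR adjusted p 0.00373) and with DESeq2 (adjusted p 0.00258). None of the 10 genes for subunits, inhibitors and an anchor of protein kinase A passed in edgeR's test, in DESeq2 or in limma, and 0 were higher and 2 lower at an unadjusted p under 0.05. Akap5 and Pkia, which encode an anchor and an inhibitor of the kinase, came nearest (log2FC -0.32 and -0.29, adjusted p 0.121 and 0.151) and passed as lower without CKO library 3 (adjusted p 0.0426 and 0.00963).

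Of 16 partners of DARPP-32 and related phosphoproteins 1 rose and 1 fell. Ppp1cc, a catalytic subunit of protein phosphatase 1, which DARPP-32 inhibits, rose from 180, 188 and 198 CPM to 265, 273 and 233 CPM (log2FC 0.44, adjusted p 0.0146). Ppp3r1, the regulatory subunit of calcineurin, which dephosphorylates DARPP-32, fell from 133, 130 and 128 CPM to 97.8, 92.8 and 106 CPM (log2FC -0.40, adjusted p 0.0148), and exons of Wdr92 on the same strand overlap 14.3% of its exonic bases. The groups did not overlap for either gene. Both calls were lost without control library 1 or 2 or CKO library 1 (highest adjusted p 0.0825 and 0.0927). Ppp3cb, a catalytic subunit of calcineurin, and Ppp1ca, another of protein phosphatase 1, had log2FC of -0.33 and -0.89 (edgeR adjusted p 0.051 and 0.0596). Both passed as lower with DESeq2 (adjusted p 0.0192 and 0.00272) and with no low-count filter (edgeR adjusted p 0.022 and 0.00369). Ppp3cb also passed without CKO library 3 (adjusted p 0.0113) and with library totals only (adjusted p 0.0442).

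None of 11 genes of cyclic AMP-responsive transcription and of the Epac exchange factors passed with edgeR, DESeq2 or limma (0 higher and 2 lower at an unadjusted p under 0.05). Crem and Crebbp, a transcription factor and a coactivator of this response, came nearest (log2FC -0.41 and -0.19, adjusted p 0.104 and 0.149). Of 6 tested genes of dopamine synthesis, uptake and breakdown, Slc18a2, the vesicular monoamine transporter, rose from 182, 180 and 166 CPM to 233, 224 and 199 CPM (log2FC 0.31, adjusted p 0.0489), and 5 did not pass. That call was lost in 8 alternative fits, among them those without each control library and without CKO library 1 or 2 (highest adjusted p 0.163). Maoa, an enzyme of monoamine breakdown that lies on the X chromosome, had a log2FC of -0.26 (adjusted p 0.158). Slc18a2 was also the 1 tested gene among 5 markers of midbrain dopamine neurons, of which Slc6a3, Pitx3, En1 and Foxa2 stayed at or below 0.252 CPM in every library.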

How the data were processed

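RNA-seq of 6 LGE libraries was analysed from the deposited tables of 29659 and 3726 genes. The deposited counts are whole numbers per gene and the deposited FPKM values are scaled by length and library total by the authors, both per the file headers. Fold changes (log2) and adjusted p-values computed by the authors are quoted only where the text names the authors' deposited table. Tools in the submitters' processing notes are HISAT2, StringTie, edgeR and bcl2fastq 2.17.1.14, with builds mm10 and GRCm38.p4, and no annotation release is named. Column names of the full table were tied to titles by group word and number, and every count and FPKM of the 3726 genes was identical in both tables.

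The test was edgeR's quasi-likelihood test (edgeR 4.0.16, limma 3.58.1, R 4.3.3) of Zfhx3-CKO (3 libraries) against control (3 libraries) on the counts, with TMM factors (0.992 to 1.008), filterByExpr (minimum count 10), which kept 16551 genes and dropped 13108, no covariate and Benjamini-Hochberg adjustment over all tested genes at 0.05. SE came from the F statistic. CPM used totals times TMM factors. Replicate libraries differed by more than sampling noise (chi-square per gene 3.15 to 26.7 within groups, where noise gives about 1), so each was kept. Deviations of same-numbered libraries correlated at -0.05, -0.09 and -0.29, so the numbers do not pair them.

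The members and lists were chosen with earlier results of these data known. Named genes are the 10 members, Zfhx3, every pathway gene past the threshold, else up to 2 per list by p. A gene that this rule names is not reported here. Gng7 and the marker genes printed were chosen after their values were seen. Gene overlaps came from GENCODE vM21 (GRCm38) and promoter sequences from RefSeq (GRCm38.p6). Alternatives were a replicate block, DESeq2 (1.42.0), RLE factors, library totals only, no and a strict low-count filter (5 CPM in 3 libraries), limma-trend on log2(FPKM + 1) of genes with at least 1 FPKM in 3 libraries, and each library left out. The fit without Zfhx3-CKO libraries 1 and 3 was added after the data were seen.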

Additional observations from a re-analysis of the deposited data

How the results depend on the processing

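Of the 10 genes, 2 were higher and 0 lower. Each library left out in turn gave 1 to 3 higher and 0 to 2 lower; 2 were lower without Zfhx3-CKO library 3, where 6.06% of all tested genes were lower. The fit without both Zfhx3-CKO libraries 1 and 3, an alternative chosen after seeing the data, gave 1 higher (Adora2a) and 3 lower, where 4.97% and 4.93% of all tested genes were called. With the replicate number as a block, 1 of the 10 was higher and 2 pathway genes were higher and 0 lower; no library correlated best with the library of its own number, so this pairing is not one the design gives. Of the other pathway genes, 7 were higher and 2 lower: 4 were higher with limma-trend on FPKM, 6 were lower with DESeq2 and 6 with no low-count filter, and 12 were lower without Zfhx3-CKO libraries 1 and 3. Single libraries left out gave 2 to 10 higher and 0 to 11 lower pathway genes. The cause of these shifts was not tested. The fit without Zfhx3-CKO libraries 1 and 3 takes its spread from the control libraries alone. RLE factors, library totals only and the strict filter kept the member counts at 2 and 0, and no scaling moved the median of all genes by over 0.1 (log2). No call changed sign. Counts were low for Drd3 (6 to 22 per library) and Chrm4 (81 to 133 per library), and the part of depth in their missing calls was not tested.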

Other observations

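Adora2b, a lower-affinity adenosine receptor, varied between libraries without regard to group. It was measured at 0.418, 2.71 and 4.48 CPM in control libraries 1, 2 and 3 and at 0.245, 3.23 and 0.512 CPM in CKO libraries 1, 2 and 3 (log2FC -0.95, SE 0.92, edgeR adjusted p 0.565). The 5 red blood cell markers summed to 693, 953 and 1062 CPM and to 693, 2519 and 799 CPM in the same libraries. The 3 libraries with Adora2b above 1 CPM were the 3 with the largest sums of these markers, and the relation was not tested.

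Adcy1, a calcium-stimulated adenylyl cyclase, was measured at 105, 92.4 and 60.5 CPM in the control libraries and at 101, 50.9 and 180 CPM in the CKO libraries (log2FC 0.36, SE 0.39, adjusted p 0.61). Arpp21, a cyclic AMP-regulated phosphoprotein of striatal neurons, was measured at 71.8, 64.9 and 53.8 CPM and at 49.4, 28.5 and 75.4 CPM (log2FC -0.31, SE 0.29, adjusted p 0.544). Both had the order of CKO libraries seen for Gnal, Ppp1r1b and Pde10a, with library 2 lowest and library 3 highest. Both genes were named after their values were seen.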
